A study of Caenorhabditis elegans with 9 samples.

Results

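The regions described here are the 900 PES-1 peaks on the X chromosome of the nematode Caenorhabditis elegans, out of 7213 peaks in a combined list. They were taken as every peak whose chromosome is X. The lists of the 2 replicates, with 383 of 3488 peaks on X in replicate 1 and 591 of 4185 in replicate 2, served as replicate support. Binding was read out by ChIP-seq, in which DNA crosslinked to a protein is pulled down with an antibody and then sequenced. All worms were hermaphrodites of strain OP87 at L4, the last larval stage, grown at 20 °C. They carried unc-119(ed3) on chromosome III and the array wgIs87, which holds an unc-119(+) rescue gene and pes-1 fused to TY1, EGFP and 3xFLAG tags. The array was brought in by bombardment, and the labels give 1 such strain. The antibody was raised in goat against EGFP. The labels do not say whether the replicates were separate cultures. They list 2 ChIP and 4 input libraries for replicate 1 and 3 ChIP libraries for replicate 2, input being DNA of the extract before precipitation; an input of replicate 2 was not analysed here.

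PES-1 is a transcription factor of the forkhead family, whose members bind DNA through a winged-helix domain, and its gene is best known for its activity in the early embryo. The X chromosome has a chromatin biology of its own in this animal. In the body cells of hermaphrodites a dosage compensation complex coats both X chromosomes and lowers their transcription, and in the germ line X is largely silenced and carries few germline genes. Autosomes have repeat-rich arms and gene-dense centres, a division that is weaker on X.

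Each peak was deposited as a start, an end and a q-value, the false discovery rate that the peak caller gave it; a smaller q marks a more significant peak. All q-values in the lists lie under 0.01, so weaker regions are not in the lists, and a stretch without a peak is not shown to be unbound. No read counts come with the peaks, so depth is unknown. Whole worms were used, and a site bound strongly in few cells cannot be told apart from one bound weakly in many. Positions are on WormBase build WS190. Each replicate is a single list, so differences between X and other chromosomes are given as descriptions, with no test, and the exact binomial intervals (95%) cover counting error only.

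PES-1 peaks were found along the whole of X, with more towards both ends than in the middle. X spans 17.7 Mb up to the last peak of any list, and its 900 combined peaks amount to 50.8 per Mb, with 21.6 per Mb in replicate 1 and 33.4 in replicate 2. Divided into 3 equal parts, X held 315 combined peaks on the left, 235 in the middle and 350 on the right. The middle part thus had 26.1% of the peaks (interval 23.3 to 29.1%), where even placement would give 33.3%. In replicate 1 the parts held 140, 100 and 143 peaks, and in replicate 2 they held 191, 171 and 229, so the middle was the poorest part in each list. The middle share of replicate 2, 28.9% (25.3 to 32.8%), was the nearest to even. Single autosomes had between 26.2% and 31.1% of their combined peaks in the middle part, so the dip was not seen on X alone. By covered length the middle was again the lowest, though by less: combined peaks covered 2.36% of the left part, 2.31% of the middle and 2.62% of the right. The same order held in replicate 1, at 1.29%, 1.22% and 1.31%, and in replicate 2, at 1.21%, 1.17% and 1.41%.

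**Figure D1:**
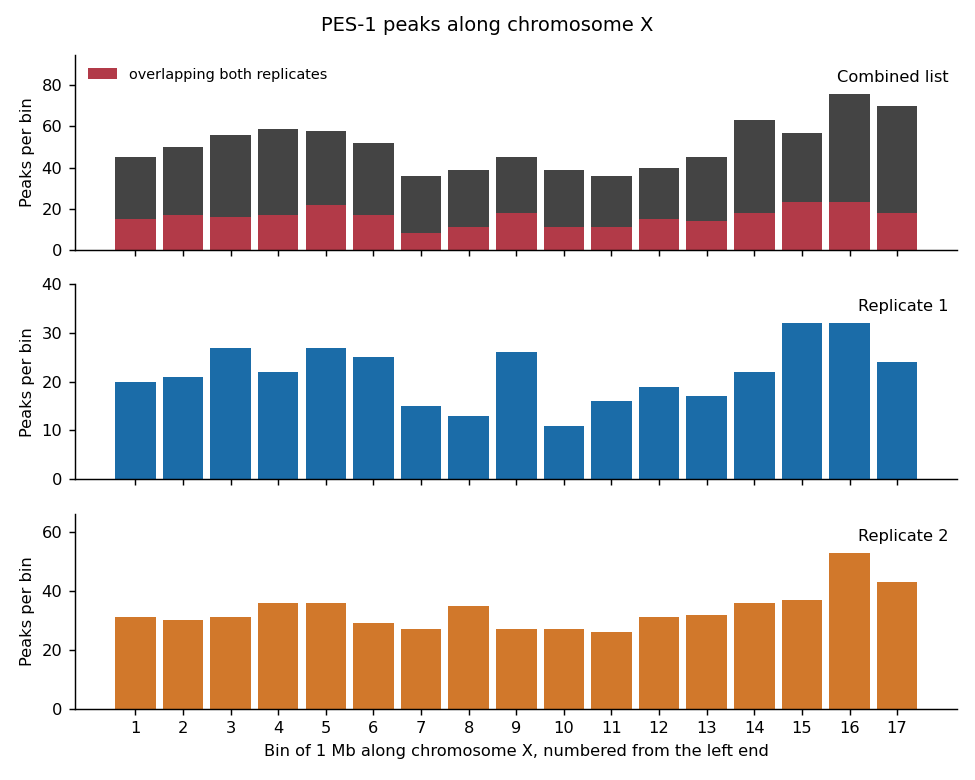
Number of peaks in each of 17 consecutive bins of 1 Mb along chromosome X (horizontal axis, numbered from the left end) in the 3 lists (vertical axes, peaks per bin). The part of X beyond 17000000 is not shown. Red marks the combined peaks that overlap a peak of both replicates; the combined counts run from 36 in bins 7 and 11 to 76 in bin 16.

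In steps of 1 Mb, combined peaks ranged from 36 to 76 per bin, with a median of 50. The 17 whole bins end at 17000000, and the rest of X to its right was not binned. The fullest bin, from 15000001 to 16000000, held 76 combined peaks, 32 of replicate 1 and 53 of replicate 2, and it was fullest or level with the fullest in each list. The poorest in replicate 1 was the bin from 9000001 to 10000000 with 11 peaks, where replicate 2 had 27. Over the 17 bins the counts of the replicates had a Spearman's rho of 0.54 and a Pearson's r of 0.57; the bins share the libraries behind each list, and these values are descriptions. The combined peaks overlapping both replicates were spread over all 17 bins, from 8 in the bin starting at 6000001 to 23 in each of the bins starting at 14000001 and 15000001.

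PES-1 peaks on X were less crowded than on any autosome. Counted by midpoint in windows of 100 kb, combined peaks on X had a median of 5 per window and a maximum of 14, against maxima of 21 to 44 on the autosomes. The variance of these counts over their mean, which is 1 for points scattered at one constant rate, was 1.45 on X and 2.22 to 3.63 on the autosomes. It was also lowest on X in replicate 1, at 1.16 against 1.57 to 3.03, and in replicate 2, at 1.13 against 1.38 to 3.49. Chromosome V, whose density of 53.9 combined peaks per Mb is close to that of X, had a ratio of 2.99. Close neighbours were likewise fewer. Of the 899 gaps between neighbouring combined peaks on X, 87 (9.68%) were under 1 kb, while on the autosomes 14.6% to 21.5% were. In replicate 1 the share on X was 4.45%, below 7.99% to 13.9% on the autosomes, and in replicate 2 it was 5.59%, below 6.90% to 17.5%. Peaks less than 1 kb apart formed 71 groups on X with 158 peaks in all; 59 groups were pairs, and the longest runs had 4 peaks. The lists themselves set a lower limit here, since no gap in any list was shorter than 200 bp.

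The fullest window of X, from 15300001 to 15400000, held 14 combined peaks, 7 of replicate 1 and 10 of replicate 2, more than any other window of X in each list. The next was 16100001 to 16200000, with 12 combined peaks, but only 2 of replicate 1 against 8 of replicate 2. The windows from 12600001, 15200001 and 15600001 had 11 combined peaks each. Replicate 1 had 2, 3 and 3 peaks in them, and replicate 2 had 7, 7 and 6. In these 5 windows 2 or 3 combined peaks each overlapped both replicates, and the others were called in 1 replicate or in the combined list alone. Over the whole of X 31.4% of combined peaks overlapped both replicates, and over all chromosomes 32.7% did. Most combined peaks thus lacked such support elsewhere too, but each of the 5 windows had a smaller supported share than X as a whole. The windows were picked for their high combined counts, and whether this bears on their support was not tested.

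Long stretches without combined peaks took up more of X than of any autosome but V. The median gap between combined peaks was 10110 bp, longer than on the autosomes (4064 to 7519 bp). Gaps over 50 kb numbered 86 and made up 38.0% of X, next to 43.4% of V, 35.3% of IV and 8.51% to 29.5% of the others. The longest ran for 226143 bp from 1627467 to 1853609. Replicate 1 had no peak inside it, and replicate 2 had 1 with a q of 0.00892. The stretch from 10000189 to 10142029 (141841 bp) and the one from 10235570 to 10372553 (136984 bp) lie close together in the middle of X, and neither replicate had a peak wholly inside either. From 15866455 to 16003446 (136992 bp) replicate 2 had a single peak with a q of 0.000936. The last of the 5 longest, from 197315 to 324030 (126716 bp), was empty in both replicates as well. Chromosome V had a longer combined stretch than X, of 309.9 kb, and I to IV had none as long.

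Among the 177 whole windows of 100 kb on X, 8 (4.52%) held no combined peak, or 20.9% when only peaks with a q under 1e-05 were counted. The combined share was 0% to 1.72% on I to IV and 6.73% on V. Replicate 1 left 31 windows of X empty (17.5%, against 0.73% to 16.35% on the autosomes). Replicate 2 left 9 empty (5.09%, against 1.46% to 11.5%). All 3 lists were empty in 5 windows of X, starting at 200001, 1700001, 5500001, 10000001 and 11100001. Over the 3 lists together, 10 stretches longer than 100 kb had no peak at all and summed to 1303.8 kb, or 7.37% of X. Replicate 1 alone left longer stretches bare. Its longest, chosen after its value was seen, was 358318 bp from 6378780 to 6737097, and it held 5 combined and 4 replicate 2 peaks. That stretch ends where the broadest region of X begins.

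PES-1 peaks on X were wider than those on II to V. Their median width in the combined list was 373.5 bp (quartiles 248 and 553.8 bp), against 336 bp on II to V together and 314 to 363 bp on the single autosomes. Of the 900, 517 (57.4%, interval 54.1 to 60.7%) were wider than the II to V median. In replicate 1 the medians were 446 and 367 bp, and 68.2% of X peaks (63.2 to 72.8%) exceeded the II to V median. In replicate 2 they were 323 and 297 bp, and 57.5% (53.4 to 61.6%) did. X had the highest median of all 6 chromosomes in the combined list and in replicate 1. In replicate 2 chromosomes I and IV, at 337 and 327 bp, were above it. The X median over that of II to V came to 1.11 for combined peaks, 1.22 for replicate 1 and 1.09 for replicate 2.

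**Figure D2:**
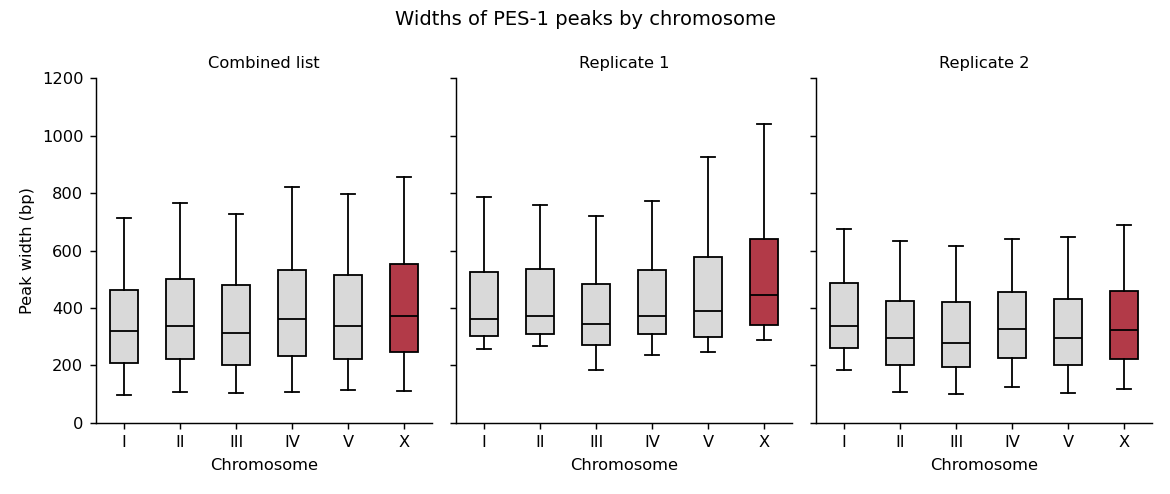
Peak width in bp (vertical axis) by chromosome (horizontal axis) in each of the 3 lists. Boxes span the quartiles with the median as a line and whiskers reach the 10th and 90th percentiles; X, in red, has medians of 373.5, 446 and 323 bp.

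The greater width on X did not come with smaller q-values. The median combined q was 0.00029 on X and 6.61e-05 on II to V, and 14.2% of X peaks had a q below 1e-10 against 18.3%. Split by q, X peaks were the wider ones in the 3 classes of larger q and nearly level in the class of smallest q. Between 0.01 and 0.001 the median width was 266 bp on X (351 peaks) and 209 bp on II to V (1427 peaks). Between 0.001 and 1e-05 it was 348 and 299 bp, and between 1e-05 and 1e-10 it was 501.5 and 411 bp. Below 1e-10 the medians were 540.5 and 537.5 bp. X had the higher median in each class of both replicates too. In replicate 1 the difference was widest between 1e-05 and 1e-10, at 548 bp on X against 410 bp. In replicate 2 it was widest between 0.001 and 1e-05, at 374 against 305 bp. Below 1e-10 the medians were 511.5 and 492 bp in replicate 1 and 531.5 and 523 bp in replicate 2.

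Broad regions were also more frequent on X in the combined list and replicate 1. Of the 900 combined peaks 67 (7.44%, interval 5.82 to 9.36%) were at least 1 kb wide, against 5.24% of the peaks of all chromosomes and 5.41% (4.79 to 6.09%) of those on II to V. In replicate 1 the share was 11.2% on X (8.25 to 14.8%), 6.14% over all chromosomes and 5.79% on II to V (4.90 to 6.78%). In replicate 2 it was 3.38% on X (2.08 to 5.18%), 2.84% over all chromosomes and 2.77% on II to V (2.22 to 3.41%), and chromosome IV, at 3.41%, was above X. The larger share on X thus rested on replicate 1 more than on replicate 2. Among combined peaks with a q under 1e-05 it was 14.7% on X and 11.3% on II to V. Among combined peaks with a q between 0.01 and 0.001, 2.56% were broad on X and 0.70% on II to V. Among those between 0.001 and 1e-05 the shares were 5.11% and 1.82%. In all, 21 of the 67 broad X peaks had a q of 1e-05 or more.

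The 67 broad peaks covered 112.5 kb, or 26.2% of the length under X peaks. They lay 18 in the left, 31 in the middle and 18 in the right part of X, so 13.2% of the peaks in the middle were broad against 5.71% on the left and 5.14% on the right. In replicate 1 the parts had 9.29%, 17.0% and 9.09% broad peaks. In replicate 2 they had 3.67%, 4.09% and 2.62%, from 20 broad peaks in all. Single autosomes had 4.77% to 7.62% of broad combined peaks in their middle parts. On I, II, III and V the middle also had the highest share of the 3 parts, while on IV the right part did, at 7.53%. Both replicates overlapped 42 of the 67 (62.7%, against 78.0% on II to V), replicate 1 alone 11, replicate 2 alone 7 and neither replicate 7. Over all chromosomes the same split of 378 broad peaks was 279, 47, 29 and 23. A replicate 1 peak of at least 1 kb overlapped 40 of the 67 and a replicate 2 peak of that width 19, with 12 in common. The other 20 met no such peak in either replicate. Overlap between broad peaks was counted on X only, so it has no value from other chromosomes beside it.

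The broadest PES-1 region of X, from 6737036 to 6745891, was 8856 bp wide with a combined q of 1.42e-49. Replicate 1 covered 95.2% of it with 2 peaks of 944 and 7487 bp, the wider with a q of 6.91e-27. Replicate 2 covered 39.7% with 4 peaks of 443 to 1122 bp, and its smallest q there was 2.37e-05, which ranked 1150 in that list against 72 in replicate 1. The replicates therefore differed over this region both in extent and in rank. The second broadest, from 11603098 to 11606614 (3517 bp, q = 3.77e-27), had the smaller q in replicate 2, at 9.86e-15 against 1.14e-08. Replicate 1 still covered more of it, 88.6% against 75.1%. The region from 4144303 to 4147109 (2807 bp, q = 3.59e-20) likewise had the smaller q in replicate 2, at 1.65e-10 against 1.11e-07, and there replicate 2 also covered more, 84.2% against 78.0%. Replicate 2 split both of these into 2 peaks, and replicate 1 called each as 1.

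**Figure D3:**
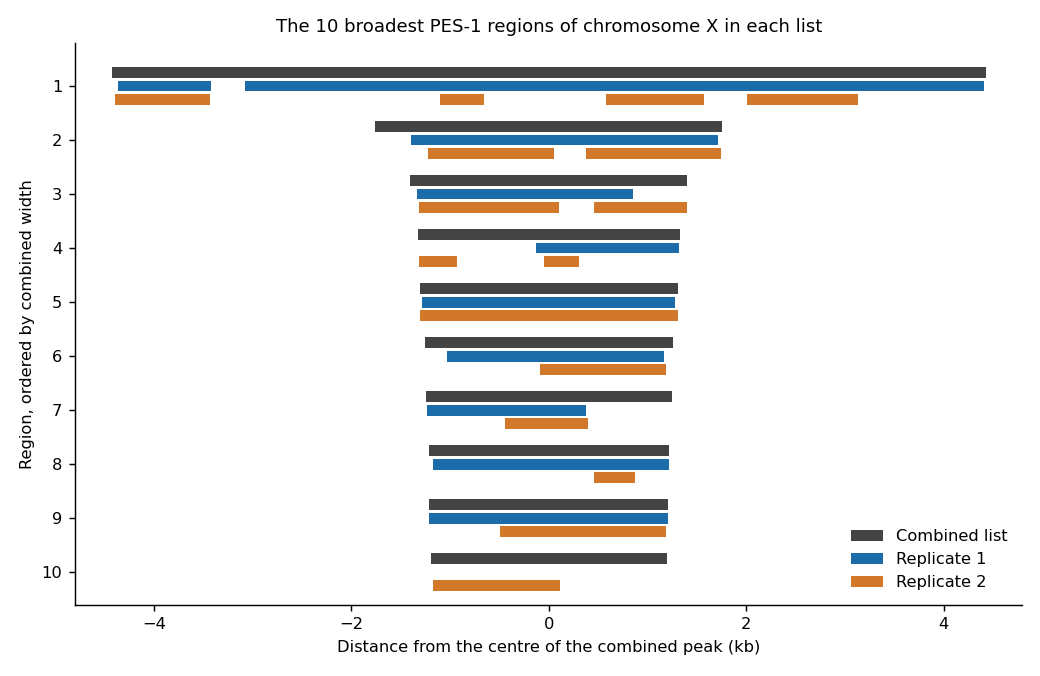
Extent of the 10 broadest regions of X in the combined list and in the replicates, one region per row in order of combined width; the horizontal axis is the distance in kb from the centre of the combined peak. Bars are the called peaks, and the first region, 8856 bp wide, appears as 2 peaks in replicate 1 and 4 in replicate 2.

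Of the other 7 broadest regions, the one from 16929378 to 16931991 (2614 bp) was covered almost whole in both replicates, 98.4% and 99.8%. It also had the smallest q of X, 5.78e-87. The regions from 3114284 to 3116796 (2513 bp) and from 16611298 to 16613788 (2491 bp) had combined q-values of 4.20e-27 and 3.90e-25. In the first the replicates were level, with q = 2.73e-14 and 2.82e-14. In the second they were 4.42e-16 and 7.18e-13. From 13143176 to 13145595 (2420 bp, q = 1.59e-34) replicate 1 covered 99.8% and replicate 2 covered 69.4%. The tenth, from 7230428 to 7232823 (2396 bp, q = 1.25e-08), overlapped no replicate 1 peak and 1 replicate 2 peak with a q of 2.39e-05. Over the 10 regions replicate 1 covered a median of 88.2% of the combined width and replicate 2 a median of 52.2%.

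The fourth and eighth broadest regions belong to the set with the most broad peaks on X. Between 11462967 and 11483232, a span of 20.27 kb, 5 combined peaks of at least 1 kb stood side by side with 2 narrower ones, and the 5 together covered 10.18 kb. Their widths were 2651, 1126, 2376, 1591 and 2433 bp from left to right. Their combined q-values were modest for such widths, at 1.39e-10, 3.31e-05, 5.89e-07, 0.000722 and 1.31e-10. Replicate 1 overlapped 4 of the 5, with q-values from 2.09e-07 to 0.00188. Replicate 2 overlapped the outermost pair only, with q-values of 0.00222 and 0.00192, and covered 28.4% and 17.1% of them. The broad peaks of the set were thus seen mainly in replicate 1 and the combined list. Joining broad peaks at most 100 kb apart, the 67 formed 43 sets, of which 26 were single peaks and 4 had 3 or more members. This set was singled out after its values were seen.

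The 10 most significant PES-1 regions of X were all called in both replicates. Of these, 6 were 477 to 632 bp wide and 4 were broad. The top region, from 16929378 to 16931991, ranked 6 in the whole combined list. Replicate 1 gave it a q of 2.23e-66 and ranked it 3, while replicate 2 gave 9.84e-20 and ranked it 72. The next 3 were a 632 bp peak from 5840879 to 5841510 (q = 3.25e-52), a 477 bp peak from 14312337 to 14312813 (q = 1.50e-51) and a 534 bp peak from 15840974 to 15841507 (q = 9.07e-50). For the first of them the replicates gave near-equal q-values, 8.88e-28 and 1.64e-27. For the second they gave 3.00e-38 and 1.59e-17, and for the third 1.19e-28 and 2.49e-25. The peak from 14312337 had 14726 bp to the next combined peak on its left and 121669 bp on its right.

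The fifth by q was the broadest region already described. The sixth, from 10568203 to 10569490 (1288 bp), had a combined q of 4.51e-40, with 2.71e-26 and 1.10e-14 in the replicates. The peaks from 7822978 to 7823491 (514 bp, q = 2.23e-37) and from 11093851 to 11094382 (532 bp, q = 1.69e-34) had the smaller q in replicate 1. The peak from 6296210 to 6296823 (614 bp, q = 5.75e-35) was the exception among the 10, with 1.97e-14 in replicate 1 and 7.46e-23 in replicate 2. The region from 13143176 to 13145595 was the remaining member. Replicate 1 thus had the smaller q in 9 of the 10. Over all matched pairs of X it had the smaller q in 54.6%, against 63.5% on II to V.

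The replicates shared a large part of their X peaks, and the share depended on which list was asked. Of the replicate 1 peaks on X, 280 of 383 (73.1%, interval 68.4 to 77.5%) shared 1 bp or more with a replicate 2 peak, against 67.7% over all chromosomes. Of the replicate 2 peaks, 286 of 591 (48.4%, 44.3 to 52.5%) overlapped a replicate 1 peak, against 57.3% over all chromosomes, and this was the lowest share of the 6 chromosomes. The replicate 2 list is the longer on X, by 591 peaks to 383, and it is also the longer on each of II to V. On chromosome I the replicate 1 list is the longer, by 634 peaks to 523. There 58.5% of replicate 1 peaks and 71.3% of replicate 2 peaks were matched. Whether list length bears on the share was not tested. The most significant peaks were matched nearly always: 49 of the first 50 of replicate 1 and 50 of the first 50 of replicate 2. Of the last 100 by q, 47 of replicate 1 and 19 of replicate 2 were matched. Matching by rank was counted on X only, so it has no value from other chromosomes beside it.

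Of the 900 combined peaks, 283 (31.4%, interval 28.4 to 34.6%) overlapped both replicates, against 32.7% over all chromosomes and 35.7% (34.3 to 37.1%) on II to V. Replicate 1 alone held 98 (10.9%, against 14.6% over all chromosomes) and replicate 2 alone 220 (24.4%, against 19%). Neither held 299 (33.2%), a share close to the 33.7% over all chromosomes. Median width and q were 523 bp and 8.95e-10 for peaks in both replicates, and 264 bp and 0.0036 for peaks in neither. By q the support ran from 0.57% (0.07 to 2.04%) at q between 0.01 and 0.001 to 98.4% (94.5 to 99.8%) below 1e-10. On II to V these classes had 0.14% and 98.5%. Between 0.001 and 1e-05 X had the lower share, 6.38% (3.62 to 10.3%) against 9.01% (7.55 to 10.7%). Between 1e-05 and 1e-10 it had the higher, 75.3% (68.4 to 81.3%) against 65.1% (62.2 to 67.9%). By width X had the lower share in each class: at 200 to 399 bp support was 22.8% on X (18.5 to 27.7%) and 34.3% on II to V (32.2 to 36.5%). At 1 kb or more it was 62.7% on X (50.0 to 74.2%) and 78.0% (72.4 to 82.9%).

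**Figure D4:**
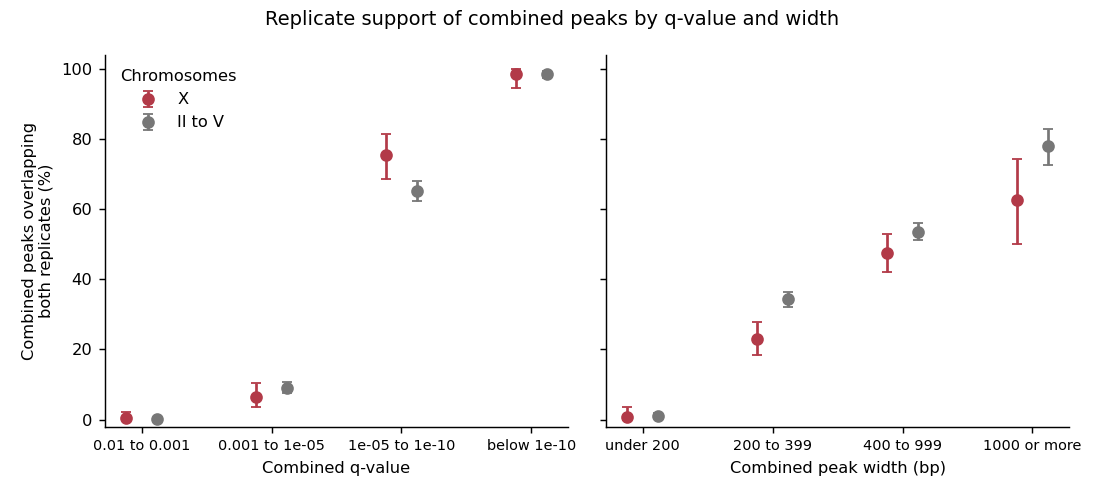
Share of combined peaks that overlap both replicates (vertical axis, percent) by combined q-value (left) and by combined peak width in bp (right), for X in red and II to V in grey. Points are shares and bars are exact 95% binomial intervals; at 200 to 399 bp X has 22.8% and II to V 34.3%.

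Where the replicates met on X, they placed the peaks closely. Pairing each X peak with its largest mutual overlap gave 280 pairs, in which midpoints lay a median of 35.5 bp apart, and in 225 pairs (80.4%) they lay under 100 bp apart. On II to V the median was 32.5 bp, and 78.45% of pairs lay under 100 bp apart. Replicate 1 called the wider peak in 184 of the 280 pairs (65.7%), with median widths of 446 and 394.5 bp. The share on II to V was close to this, at 66.2%, with median widths of 381 and 353.5 bp. The −log10 q values had a Pearson's r of 0.60 on X and 0.83 on II to V, and a Spearman's rho of 0.57 and 0.63. On single autosomes rho ran from 0.59 to 0.69. Without the 2 X pairs of highest replicate 1 value, r on X was 0.60. No pairs were left out on II to V, so whether extreme pairs make the difference in r was not tested. These are descriptions over pairs that passed the threshold in both lists. The widths of the pairs had a rho of 0.69 on X and 0.67 on II to V.

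**Figure D5:**
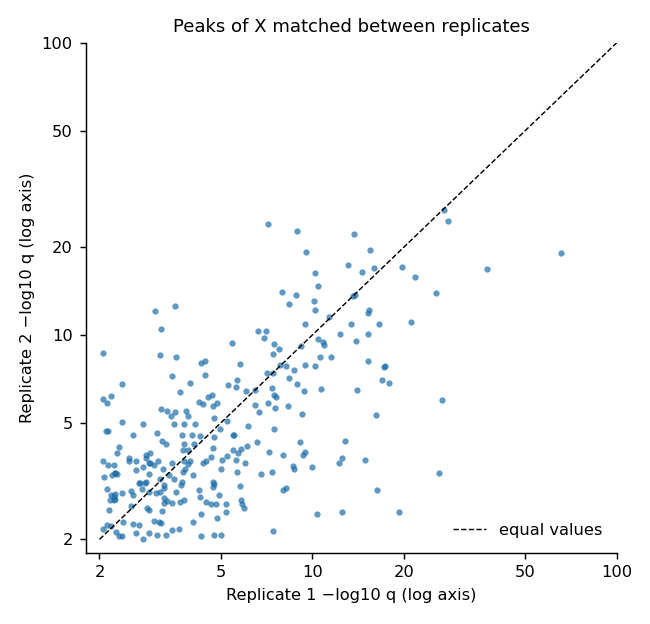
The −log10 q of replicate 2 (vertical log axis) against that of replicate 1 (horizontal log axis) for the 280 matched pairs of X peaks, one point per pair. Points below the dashed line of equal values, 153 of 280, had the larger value in replicate 1.

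Peaks of X in 1 replicate only were mostly weak. The 103 such peaks of replicate 1 were as wide as its shared ones, with a median of 446 bp for each set, and the 305 of replicate 2 were narrower, at 239 against 395.5 bp. A q below 1e-05 was reached by 9 of the 103 and by 4 of the 305, which was counted on X only. Their median q was 0.00211 in replicate 1 and 0.00298 in replicate 2. Over all chromosomes such peaks had medians of 0.00138 and 0.00297, so their weakness was not particular to X. The strongest in replicate 1 were the peaks from 13358470 to 13359039 (q = 2.07e-12), 15365109 to 15366069 (q = 3.87e-10), 17630726 to 17631322 (q = 6.68e-10), 8154381 to 8154973 (q = 1.65e-09) and 11471804 to 11472620 (q = 4.68e-09). All 5 were in the combined list. The fourth lay 618 bp from a replicate 2 peak and the others 1952 to 5739 bp. The strongest in replicate 2 alone had larger q-values, from 9.52e-07 at 16943811 to 16944741 to 1.08e-05 at 13542194 to 13543685. Between them came 15385913 to 15386265 (q = 1.35e-06), 6292157 to 6292433 (q = 3.35e-06) and 13544191 to 13544627 (q = 7.48e-06). These 5 were in the combined list too.

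The combined list left out few X peaks of replicate 1 and more of replicate 2, as it did over all chromosomes. On X 3 of the 383 (0.783%) overlapped no combined peak, against 1.43% over all chromosomes. In replicate 2 it was 81 of the 591 (13.7%), against 8.84%, and the smallest q among the 81 was 0.00026. In the other direction, the most significant combined peaks of X in neither replicate lay from 4619612 to 4620366 (755 bp, q = 6.04e-05) and from 12630029 to 12630817 (789 bp, q = 7.01e-05). The next 3 were only 42, 2 and 9 bp wide, at 2960861, 3761266 and 9295566, with q-values of 8.57e-05, 9.43e-05 and 9.43e-05. Peaks under 50 bp numbered 52 of the 900, 5 in replicate 1 and 32 in replicate 2. On II to V they were 259 of 4785 combined peaks, 19 of 2471 in replicate 1 and 147 of 3071 in replicate 2. The first combined peak of X, from 11412 to 11786, had a q of 0.000197 and replicate 2 support, and the last, from 17682330 to 17682569, had a q of 0.00715 and support from neither.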

How the data were processed

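The authors deposited 3 peak lists with a chromosome, start, end and q-value (a p-value corrected for multiple testing) per peak. Per the file headers, coordinates follow WormBase WS190, and the files' method field names PeakSeq as the caller. Not given in the sources used here are the caller's version and threshold, the aligner, the controls and how the combined list was made. Per the labels' protocols, worms were crosslinked with 2% formaldehyde and sonicated. A list's name, matched to sample titles, showed its replicate. Peaks were pooled per replicate, so libraries have no values of their own and read depth is unknown.

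Python 3.11.15 with pandas 2.3.3 did the computing. Overlap meant at least 1 bp, windows took peaks by midpoint, and a chromosome's length was its last peak end. Intervals are Clopper-Pearson (scipy 1.17.1). Overlap routines were tested on simulated data. Regions were named by rule: the 10 broadest and the 10 of smallest q, the 5 longest empty stretches and 5 fullest windows, the 5 of smallest q found in 1 replicate or in neither, and the first and last peak. Members and lists were chosen with earlier results of these data known. No sequence or gene is given, since a genome or annotation of build WS190 was not used here.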

Additional observations from a re-analysis of the deposited data

How the results depend on the processing

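No paired analysis was possible because each replicate is a single peak list. Of 39 alternatives over 8 shares, all planned, 15 stayed inside the reported interval and 24 moved outside it. Support of combined peaks by both replicates was 26.7% at 50% reciprocal overlap and 26.4% with all 3 lists cut to q under 1e-05. That cut also removed replicate peaks of larger q. With the replicate lists uncut, support was 75.3% at combined q between 1e-05 and 1e-10 and 98.4% below 1e-10. With a single replicate list support was 42.3% to 55.9%. Replicate 1 peaks matched fell to 65.3% at 50% reciprocal overlap and 61.5% with the lists cut. Replicate 2 peaks matched were 42.3% and 70.9% under these settings. X peaks wider than the II to V median made up 61.2% at q under 1e-05, 62.4% when II to V was weighted to the q-values of X in 10 strata, and 57.5% to 68.2% in single replicates. Broad peaks were 14.7% at q under 1e-05, 1.33% for 2 kb in place of 1 kb, and 3.38% to 11.2% in single replicates. X held 15.8% of the combined peaks of II to V and X, with 20.8% of their length. This became 13.7% at q under 1e-05, 17.5% by covered length and 13.4% to 16.1% in single replicates. With chromosome I included, X held 12.5% of the combined peaks and 17.7% of the length. The middle 50% of X held 41.9% of its peaks, and the middle of 3 parts 26.1% to 28.9% in single replicates. Windows without a combined peak were 20.9% at q under 1e-05, 14.4% of 50 kb windows, 0% of 200 kb windows, and 5.09% to 17.5% in single replicates. Apart from settings that change the quantity by construction (fewer peaks, other windows or widths), the cause was not tested. Unknown depth limits what a missing peak means.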
